A study of Mus musculus with 12 samples.

Results

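Genes of the epicardium, the sheet of mesothelial cells that covers the outer surface of the heart, were followed through 12 libraries of poly-A RNA from adult cardiomyocytes. The genes were Has1, Wt1, Upk3b, Upk1b, Msln, Lrrn4, Krt19, Tbx18 and Aldh1a2, 9 in all of 21493 genes listed. Has1 was chosen by its level in these data, as a gene with a very large difference between genotypes without swimming, and the others as known markers of the epicardium. Of the 9, 8 had a row in the count tables, matched by gene symbol, and all of these 8 passed the filter on low counts with which 13158 genes were tested. Wt1 was not analysed here. Because the genotype comparison without swimming was used in choosing Has1, the 8 genes are described there by their values, with no test, and the swimming comparisons, which share its libraries, are treated alike. The genotype comparison after swimming, between libraries other than those by which Has1 was chosen, was tested, but since results of all libraries were known when the genes were named, it is not independent support for them.

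The cells came from hearts of 3-month-old mice with (Des+/+) or without (Des-/-) desmin, the intermediate filament protein of muscle, that had swum as an exercise stress (swim) or had not (non-swim), with 3 libraries in each of the 4 groups. The study describes both lines as carrying a GFP transgene under the cardiac αMHC promoter on a 129SV background. Hearts were perfused with trypsin and collagenase D and the cells were harvested at once. No sort is described, and markers of fibroblasts, macrophages and endothelium were detected in all libraries. According to the study each library pooled the cells of several mice. The labels do not say whether the pools came from separate isolations, so p-values measure the spread between these libraries, which may be partly technical.

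The epicardium is a continuous layer of flat cells that carries both epithelial features, such as keratins and uroplakins, and surface proteins shared with the mesothelium of the lung and abdominal cavity, such as mesothelin. During development it supplies fibroblasts and mural cells to the heart and makes retinoic acid, a signal for the growing myocardium. In the adult it is quiet and re-expresses part of its developmental programme after injury. Hyaluronan, the matrix polysaccharide made by Has1 and its relatives Has2 and Has3, is spun out at the plasma membrane and accumulates in developing and injured hearts.

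RefSeq promoter sequences (GRCm38.p6) were matched for 5 of the 9 genes, Has1, Lrrn4, Upk3b, Aldh1a2 and Tbx18. The 250 bases upstream of the annotated start are shown for Has1, Upk3b and Lrrn4. From library to library Upk3b and Lrrn4 varied together, and Has1 followed them less closely. They read 5′ to 3′ on the strand of the gene, with motif matches in capitals. Has1 lies at chr17:17855189-17855438 on the minus strand, Upk3b at chr5:136038246-136038495 on the plus strand and Lrrn4 at chr2:132880863-132881112 on the minus strand.
Has1: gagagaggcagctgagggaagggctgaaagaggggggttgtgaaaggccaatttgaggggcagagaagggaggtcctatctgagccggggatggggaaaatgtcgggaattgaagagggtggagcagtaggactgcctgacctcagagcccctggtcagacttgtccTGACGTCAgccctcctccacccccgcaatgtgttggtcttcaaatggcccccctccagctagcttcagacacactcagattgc
Upk3b: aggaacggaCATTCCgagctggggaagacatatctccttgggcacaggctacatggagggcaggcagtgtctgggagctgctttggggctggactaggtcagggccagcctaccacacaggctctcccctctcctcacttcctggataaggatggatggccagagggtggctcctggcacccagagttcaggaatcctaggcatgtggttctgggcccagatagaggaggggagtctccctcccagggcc
Lrrn4: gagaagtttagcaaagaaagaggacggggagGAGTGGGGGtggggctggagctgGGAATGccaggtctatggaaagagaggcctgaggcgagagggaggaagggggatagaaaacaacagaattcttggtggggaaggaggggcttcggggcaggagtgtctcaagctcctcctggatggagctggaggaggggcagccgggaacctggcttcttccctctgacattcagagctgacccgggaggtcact
The motifs were chosen with these sequences in view and searched on both strands. The Has1 promoter held the cAMP response element TGACGTCA, bound by CREB and ATF factors, at 83 to 76 bases before the start, a match found in 1.55% of 32851 promoters of the same length. The TEAD motif CATTCC, present in 12.6% of promoters, occurred in Upk3b (241 to 236 bases before the start) and on the opposite strand in Lrrn4 (196 to 191). Lrrn4 also held the motif shared by WT1 and EGR factors, GNGTGGGNG, at 219 to 211 bases before its start, as did 12.7% of promoters, and this match does not overlap the TEAD match. Neither the AP-1 motif TGANTCA (6.75% of promoters), the TATA box TATAAA (12.4%) nor the GC box GGGCGG (32.7%) was found in any of the 5 promoters. The Aldh1a2 promoter was the richest in G and C, at 77.6%, against 58.0% in Has1 and a median of 52.4% over all promoters. These matches describe the letters of the window and do not show that a factor binds there.

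Reads assigned to genes ranged from 4320819 to 12072443 per library, with the Des-/- swim libraries the shallowest, and 3 reads, taken as the floor of detection, were worth at most 0.694 CPM (counts normalised to library depth) before scaling by TMM. Des itself lay between 972.1 and 3644 scaled CPM in the Des+/+ libraries and between 50.3 and 100.5 CPM in the Des-/- libraries. Des-/- non-swim replicate 3 stood apart. Its 12 cardiomyocyte markers summed to 6717 CPM, the lowest value of any library, while 10 fibroblast markers summed to 37142 CPM and 10 macrophage markers to 2375 CPM, the highest values. Des-/- swim replicate 3 held the next highest sums of the fibroblast (12614 CPM) and macrophage (899.4 CPM) markers. For many of the changes below, the value on leaving out either library is given as well.

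The 5 genes Upk3b, Msln, Lrrn4, Upk1b and Krt19 were high in the same 3 libraries, Des-/- non-swim replicates 2 and 3 and Des-/- swim replicate 3. Has1, Aldh1a2 and Tbx18 instead peaked in Des-/- non-swim replicate 3, and without swimming their Des-/- libraries all lay above the Des+/+ libraries. This grouping was chosen after the values were seen and carries no test. In bulk libraries a higher share of epicardial or other cells expressing these genes cannot be told apart from more of their RNA per cell. Which cells held the RNA of each gene is likewise not known.

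Upk3b encodes a uroplakin, a membrane glycoprotein of urothelium and mesothelium (ENSMUSG00000042985, GRCm38 chromosome 5, 136038496 to 136046487, plus strand). It measured 30.4, 17.5 and 12.7 CPM in Des+/+ non-swim replicates 1, 2 and 3 and 13.8, 15.3 and 1.99 CPM in the Des+/+ swim group. In the Des-/- non-swim group it measured 9.67, 122.8 and 46.3 CPM, and in the Des-/- swim group 14.2, 15.5 and 97.8 CPM. The groups overlapped in every comparison, and Des-/- non-swim replicate 1 lay below all 3 Des+/+ non-swim libraries.

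Msln encodes mesothelin, a lipid-anchored surface glycoprotein of mesothelium (ENSMUSG00000063011, chromosome 17, 25748613 to 25754378, minus strand). Its levels were 16.5, 14.8 and 8.02 CPM in Des+/+ non-swim and 12.6, 16.6 and 1.71 CPM in Des+/+ swim libraries. They were 5.10, 77.5 and 55.5 CPM in Des-/- non-swim and 11.8, 13.99 and 113.8 CPM in Des-/- swim libraries. The same 3 libraries as for Upk3b were high, and Des+/+ swim replicate 3 was again the lowest of the 12.

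Lrrn4, a membrane protein with leucine-rich repeats that marks mesothelium (ENSMUSG00000043110, chromosome 2, 132868305 to 132880891, minus strand), measured 6.48, 7.82 and 3.34 CPM in Des+/+ non-swim libraries and 3.54, 2.99 and 0.284 CPM in Des+/+ swim libraries, the last value being 2 reads and under the floor. In Des-/- libraries it measured 2.34, 54.1 and 26.9 CPM without swimming and 3.55, 3.93 and 40.5 CPM after it. After swimming the genotypes touched without overlapping, since the lowest Des-/- library was 1.003 times the highest Des+/+ library.

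Upk1b encodes a tetraspanin of the uroplakin family (ENSMUSG00000049436, chromosome 16, 38773184 to 38800328, minus strand) and had the lowest level per length of the 8 genes over all libraries. It measured 3.18, 2.69 and 1.44 CPM in Des+/+ non-swim libraries and 1.18, 1.71 and 0.284 CPM in Des+/+ swim libraries, where the last value again was 2 reads. Its Des-/- values were 1.06, 16.4 and 8.91 CPM without swimming and 2.56, 1.97 and 24.9 CPM after swimming. After swimming the lowest Des-/- library was 1.15 times the highest Des+/+ library.

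Krt19, a keratin of simple epithelia and mesothelium (ENSMUSG00000020911, chromosome 11, 100140810 to 100148665, minus strand), measured 5.06, 2.92 and 2.52 CPM in Des+/+ non-swim and 5.90, 4.06 and 0.995 CPM in Des+/+ swim libraries. It measured 2.55, 20.3 and 16.7 CPM in Des-/- non-swim and 7.39, 7.43 and 28.9 CPM in Des-/- swim libraries. Here all 3 Des-/- swim libraries lay above the Des+/+ swim libraries, by a factor of at least 1.25.

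Has1 encodes a hyaluronan synthase of the plasma membrane (ENSMUSG00000003665, chromosome 17, 17843323 to 17855205, minus strand). It was near the floor in Des+/+ non-swim libraries, with 4, 4 and 9 reads or 0.471, 0.467 and 0.811 CPM. After swimming the Des+/+ libraries held 22, 14 and 5 reads or 2.60, 1.497 and 0.711 CPM. The Des-/- non-swim libraries held 54, 42 and 2178 reads or 5.74, 4.75 and 190.4 CPM, and the Des-/- swim libraries 17, 14 and 79 reads or 2.42, 3.06 and 12.2 CPM. All 3 Des-/- non-swim libraries were above every Des+/+ library of either condition, and the lowest of them was 5.86 times the highest Des+/+ non-swim library. Replicate 3 accounted for most of the group mean of 66.9 ± 106.9 CPM (SD, n = 3), which compares with 0.583 ± 0.198 CPM (SD, n = 3) in the Des+/+ non-swim group.

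Aldh1a2, the dehydrogenase that makes retinoic acid in the developing epicardium (ENSMUSG00000013584, chromosome 9, 71215789 to 71296243, plus strand), measured 15.7, 9.93 and 9.20 CPM in Des+/+ non-swim and 6.96, 11.98 and 6.68 CPM in Des+/+ swim libraries. It measured 32.1, 45.3 and 135.99 CPM in Des-/- non-swim libraries, where the lowest value was 2.05 times the highest Des+/+ non-swim value. In Des-/- swim libraries it measured 6.11, 10.5 and 33.8 CPM, and 2 of these 3 values lay within the range of the Des+/+ swim group or below it.

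Tbx18, a T-box transcription factor of the embryonic epicardium that is also expressed in pericytes (ENSMUSG00000032419, chromosome 9, 87702800 to 87731260, minus strand), varied least. It measured 12.4, 10.7 and 9.38 CPM in Des+/+ non-swim and 10.6, 12.2 and 9.10 CPM in Des+/+ swim libraries, and 17.2, 19.01 and 25.3 CPM in Des-/- non-swim and 15.9, 16.8 and 13.4 CPM in Des-/- swim libraries. All 6 Des-/- libraries lay above all 6 Des+/+ libraries. Unlike the other 7 genes, it was lowest of its group in replicate 3 of the Des-/- swim libraries.

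**Figure D1:**
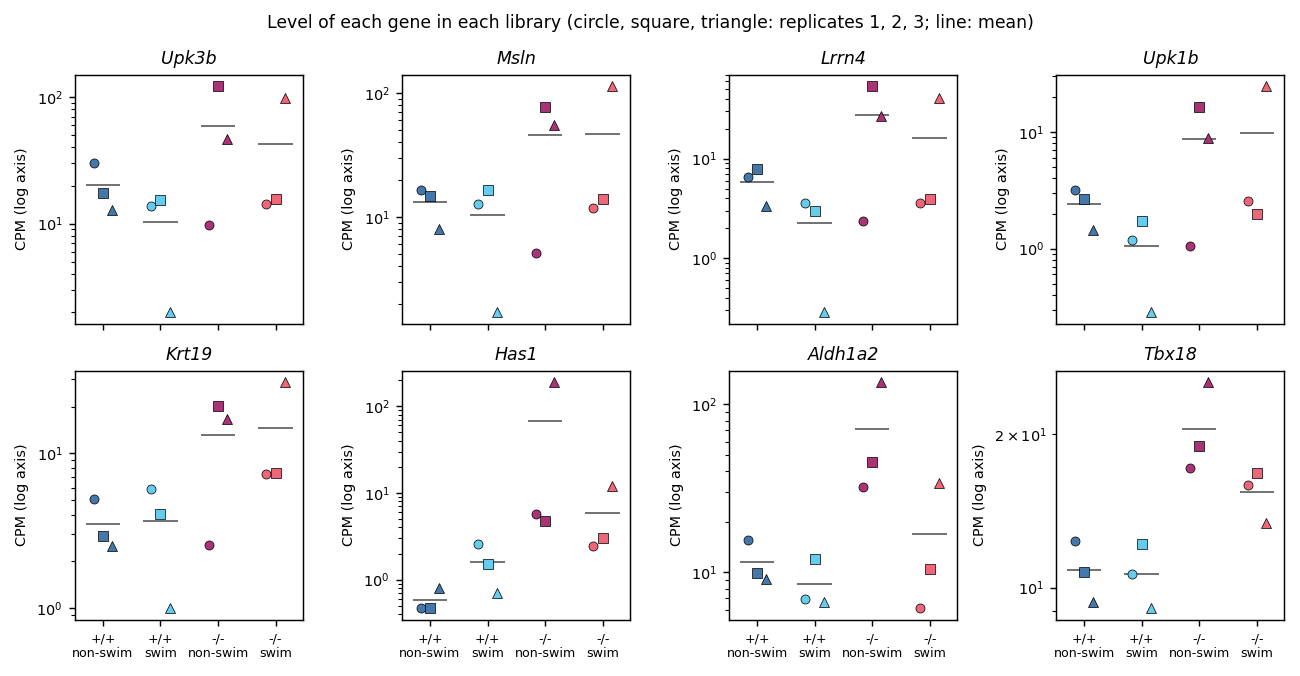
Level of each of the 8 genes in each of the 12 libraries, in CPM on a log axis that differs between panels, by group; circles, squares and triangles are replicates 1, 2 and 3 and lines are group means. The genes of the upper row and Krt19 are high in the same 3 Des-/- libraries, whereas Has1 and Aldh1a2 are highest in Des-/- non-swim replicate 3 and Tbx18 separates the genotypes in all 12 libraries.

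Per kilobase of exon, Aldh1a2 had the highest mean over the 12 libraries, 11.9 CPM per kb, followed by Msln at 9.46, Upk3b at 9.40, Krt19 at 4.70, Has1 at 4.15, Lrrn4 at 3.49, Tbx18 at 3.04 and Upk1b at 2.65. In the Des+/+ non-swim group the order was led by Upk3b, at a mean of 5.72 CPM per kb, with Aldh1a2 at 5.12 and Msln at 4.28, and these neighbours differed by less than their SDs of 2.59, 1.56 and 1.46. Has1 stood last there, at 0.129 ± 0.0437 CPM per kb (SD, n = 3), below all libraries of Upk1b, the next in order at 1.17 ± 0.429. In the Des-/- non-swim group Has1 averaged 14.8 CPM per kb, close to Msln at 15.02 and Upk3b at 16.9, but its SD of 23.7 exceeded its mean.

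The proportions of the 5 genes to each other varied less than their sum. Their summed level was 61.6, 45.8 and 28.0 CPM in Des+/+ non-swim libraries, 37.1, 40.6 and 5.26 CPM in Des+/+ swim libraries, 20.7, 291.0 and 154.3 CPM in Des-/- non-swim libraries and 39.5, 42.8 and 305.97 CPM in Des-/- swim libraries. Of their summed reads, Upk3b took between 30.0% and 49.3% in each library, Msln between 24.6% and 40.8%, Lrrn4 between 5.41% and 18.6%, Krt19 between 6.38% and 18.9% and Upk1b between 3.18% and 8.14%. Has1 followed them less closely than they followed each other. For every 100 reads of the 5 genes there were 27.7 reads of Has1 in Des-/- non-swim replicate 1, 1.63 in replicate 2 and 123.3 in replicate 3, although replicate 2 held the most reads of the 5 genes. In the Des+/+ non-swim group this number was 0.764, 1.02 and 2.89.

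**Figure D2:**
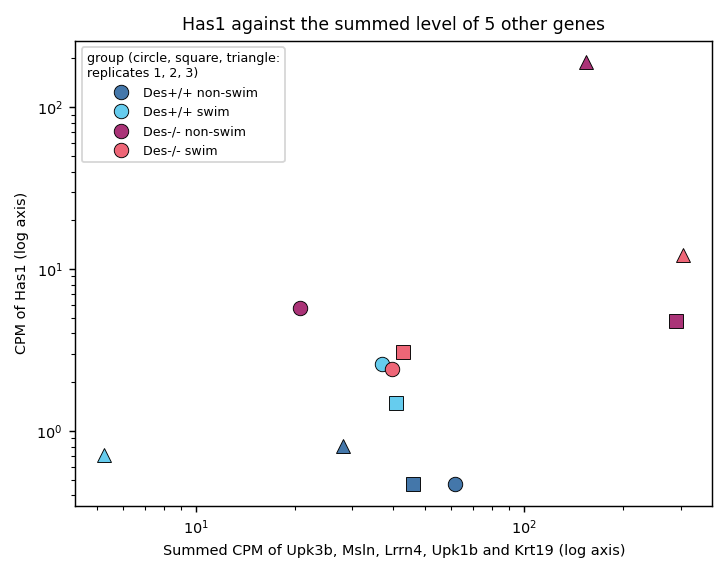
Has1 level (y axis) against the summed level of Upk3b, Msln, Lrrn4, Upk1b and Krt19 (x axis) in each library, both in CPM on log axes; colours are groups and circles, squares and triangles are replicates 1, 2 and 3. Des-/- non-swim replicate 2 lies far to the right at 291.0 CPM with 4.75 CPM of Has1, and replicate 1 of that group lies to the left at 20.7 CPM with 5.74 CPM of Has1.

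Over the 12 libraries, the log2 CPM values (prior count 2) of the 5 genes correlated with each other with a Pearson's r of 0.90 to 0.98 over their 10 pairs, and a Spearman's rho of 0.79 to 0.97. Without the 2 libraries farthest from the median the r was 0.82 to 0.97, without Des-/- non-swim replicate 3 0.89 to 0.99, and after subtracting group means 0.94 to 0.99. The 3 pairs among Has1, Aldh1a2 and Tbx18 gave an r of 0.77 to 0.83 and a rho of 0.62 to 0.74, and an r of 0.60 to 0.65 without Des-/- non-swim replicate 3. Their r was 0.44 to 0.79 without the 2 farthest libraries and 0.37 to 0.78 (median 0.46) after subtracting group means. The 15 pairs across these sets gave an r of 0.49 to 0.72 and a rho of 0.31 to 0.72, and an r of 0.26 to 0.73 without the 2 farthest libraries and 0.20 to 0.72 (median 0.44) after subtracting group means. Within groups the pairs among Has1, Aldh1a2 and Tbx18 thus had values like those of the pairs across the sets. These values describe 28 pairs over libraries that fall into groups and share depth and scaling, and no p is given for them.

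**Figure D3:**
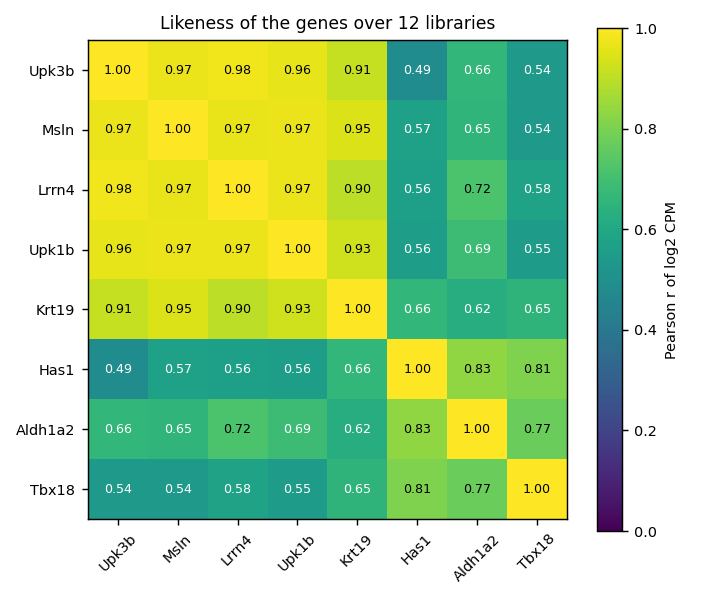
Pearson's r of log2 CPM (prior count 2) over the 12 libraries for each pair of the 8 genes, from 0 to 1 on the colour scale. The 5 genes at the upper left reach 0.90 to 0.98 with each other, and the block at the lower right, Has1, Aldh1a2 and Tbx18, reaches 0.77 to 0.83.

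The 5 tested genes whose log2 CPM was most like that of Has1 over the 12 libraries were Gltp (r 0.98), Cd84 (0.98), Il17ra (0.97), Tgif1 (0.97) and Il7r (0.97). Without Des-/- non-swim replicate 3 their r was between 0.91 and 0.93. Among all tested genes Aldh1a2 ranked 733 in likeness to Has1, Tbx18 961 and Upk3b 3336. For Upk3b, which had the highest mean level of the other genes, the 5 most alike were Lrrn4 (0.98), Msln (0.97), Cyp2s1 (0.97), Nkain4 (0.97) and Bnc1 (0.97), with Upk1b at rank 6, Krt19 at rank 11 and Has1 at rank 1487. Of the latter 5, Nkain4 and Bnc1 belonged to the list of epicardial and mesothelial genes described further on.

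Markers of other cells moved with these genes to different degrees. Fibroblast markers summed to between 3592 and 3962 CPM in Des+/+ non-swim, 2446 and 3452 in Des+/+ swim, 8722 and 37142 in Des-/- non-swim and 4229 and 12614 in Des-/- swim libraries. Macrophage markers summed to between 142.4 and 214.2, 149.8 and 213.3, 269.1 and 2375, and 146.8 and 899.4 CPM in the same order, and cardiomyocyte markers to between 65976 and 102057, 34115 and 57281, 6717 and 29406, and 18473 and 30389 CPM. Immediate early and heat shock genes, 12 in all, summed to between 1400 and 2286, 1888 and 2154, 4392 and 9132, and 3799.7 and 6360 CPM. They are named the isolation response here, but whether their level came from the isolation was not tested. All genes of these 4 lists were detected.

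The mean log2 CPM of the cardiomyocyte markers correlated with Has1 at an r of -0.92 (rho -0.89), that of the isolation response at 0.92 (rho 0.96), that of macrophages at 0.89 (rho 0.57) and that of fibroblasts at 0.88 (rho 0.76), over 12 libraries. Without Des-/- non-swim replicate 3 these r values were -0.87, 0.91, 0.68 and 0.77. The mean of the 5 genes correlated less closely with the same lists, at -0.42 (rho -0.27), 0.50 (0.38), 0.54 (0.44) and 0.59 (0.43). Endothelial, mural and atrial markers were also present, with Bmp10 of the atrial list at 1 read over all libraries, and adipocyte markers summed to between 0.234 and 23.8 CPM. The part of any of these lists in the levels of the 8 genes was not tested.

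Without swimming, all 8 genes had a higher mean in Des-/- than in Des+/+ libraries, with log2 changes between 0.92 and 6.78 and a median of 1.88, where the median over all tested genes was 0.04 and 52.6% of them had a log2 change above 0. The 3 genes whose libraries did not overlap were Has1 (log2 change 6.78, SE 1.54), Aldh1a2 (2.62, SE 0.65) and Tbx18 (0.92, SE 0.20). Of all tested genes, 23.0% were higher in Des-/- with no overlap, and 14.0% were called higher at an edgeR adjusted p under 0.05. Nothing is read from the members' count here, since this contrast served in choosing them. Without Des-/- non-swim replicate 3, the log2 change was 3.17 for Has1, 1.81 for Aldh1a2 and 0.81 for Tbx18. The log2 changes of the other 5 were 2.24 (SE 1.10) for Lrrn4, 1.91 (SE 0.80) for Krt19, 1.85 (SE 1.03) for Upk1b, 1.82 (SE 1.03) for Msln and 1.56 (SE 0.94) for Upk3b, and these rested more on replicate 2, without which they lay between 0.48 for Upk3b and 1.46 for Krt19.

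After swimming, the question of whether the genotypes differed could be tested, and edgeR's quasi-likelihood test called 0 of the 8 genes at an adjusted p under 0.05, against 10.6% of all tested genes called in either direction and 5.01% called higher. All 8 had a higher mean in Des-/- swim than in Des+/+ swim libraries, with a median log2 change of 2.00 against 0.02 over all tested genes, of which 51.6% had a change above 0. At an unadjusted p under 0.05 there were 4 of the 8, all higher in Des-/-, against 14.7% of all genes, and DESeq2 called 1 of the 8, Upk1b (log2 change 3.19, adjusted p 0.0139), against 17.7% of all genes called. The libraries did not overlap for 4, Upk1b, Lrrn4, Krt19 and Tbx18, against 17.3% of all genes higher with no overlap.

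The largest of these changes after swimming was that of Upk1b, at a log2 of 3.17 (SE 1.12, edgeR adjusted p 0.0867), followed by Lrrn4 at 2.78 (SE 1.18, adjusted p 0.138), Msln at 2.16 (SE 1.05, adjusted p 0.188) and Upk3b at 2.02 (SE 0.98, adjusted p 0.185). Krt19 had a change of 1.98 (SE 0.80, edgeR adjusted p 0.123). That of Has1 was 1.86 (SE 1.38, edgeR adjusted p 0.384) and that of Aldh1a2 0.98 (SE 0.65, adjusted p 0.333), both with overlapping libraries. Tbx18 had the smallest change and the smallest error, 0.53 (SE 0.21, edgeR adjusted p 0.114).

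The size of the changes after swimming depended on Des-/- swim replicate 3 for 7 of the 8 genes. Without it, the log2 change was 1.06 for Upk1b, 0.68 for Lrrn4, 0.30 for Msln, 0.50 for Upk3b, 1.00 for Krt19, 0.72 for Has1 and -0.08 for Aldh1a2, with edgeR adjusted p between 0.446 and 0.951. Tbx18 lay between 0.43 and 0.64 whichever library was left out. On the other side of the comparison, Des+/+ swim replicate 3 held the lowest level of Upk3b, Msln, Lrrn4, Upk1b and Krt19 of all 12 libraries.

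**Figure D4:**
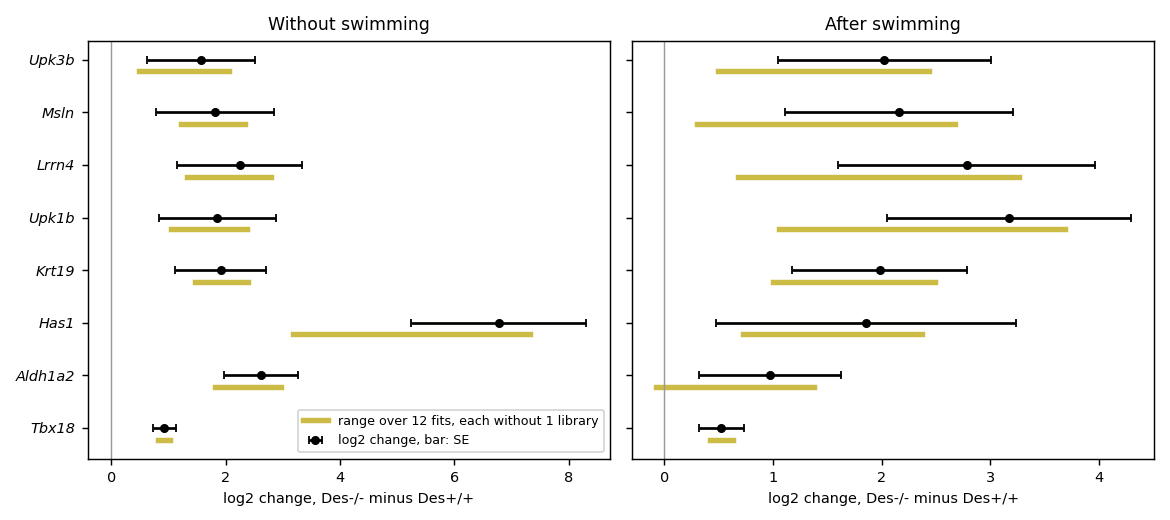
Log2 change between genotypes (Des-/- minus Des+/+) without swimming (left) and after swimming (right) for the 8 genes; points and black bars are the fitted change and its SE, and yellow bars are the range over 12 fits that each left out 1 library. Has1 ranges from 3.17 to 7.32 without swimming, and after swimming the range of Aldh1a2 reaches -0.08 while that of Tbx18 stays within 0.43 to 0.64.

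Swimming itself was described within each genotype. In Des+/+ libraries the groups overlapped for all 8 genes, whereas 31.3% of all tested genes did not overlap, and 2 of the 8 had a log2 change above 0, against 42.0% of all genes. The log2 change with swimming was 1.42 (SE 1.72) for Has1, -0.43 for Aldh1a2, -0.94 for Upk3b, -1.32 for Lrrn4, -1.14 for Upk1b and -0.32 for Msln, and those of Krt19 (0.08) and Tbx18 (-0.02) were close to 0. In Des-/- libraries Has1 had a log2 change of -3.49 (SE 1.23) and Aldh1a2 one of -2.07 (SE 0.64). Without Des-/- non-swim replicate 3 that of Has1 was 0.16 and that of Aldh1a2 -1.21. Des-/- libraries with the same replicate number deviated together here (correlations of 0.32 to 0.60), and with the number as a block the change of Has1 was -2.58. Tbx18, at -0.42 (SE 0.20), was the only one of the 8 whose Des-/- libraries did not overlap between conditions, with 13.4 to 16.8 CPM after swimming and 17.2 to 25.3 CPM without, against 19.4% of all tested genes with no overlap. Without Des-/- non-swim replicate 3 the change of Tbx18 was -0.23. Of the 8 genes 3 had a log2 change above 0 in Des-/- libraries, against 48.5% of all genes. The other 5 had log2 changes between -0.78 (Lrrn4) and 0.17 (Upk1b), with replicates far apart within each group. Without Des-/- swim replicate 3 these changes were -2.89 for Lrrn4, -2.003 for Upk3b, -1.94 for Upk1b, -1.84 for Msln and -0.83 for Krt19, so that those of Upk1b, Msln and Krt19 turned from above to below 0, and those of Has1 and Aldh1a2 were -4.63 and -3.13. Without Des-/- non-swim replicate 2 the changes of the 5 genes were instead all above 0. They were 0.13 for Lrrn4, 0.60 for Upk3b, 0.97 for Upk1b, 0.62 for Msln and 0.60 for Krt19. The comparisons share libraries with each other and with the genotype comparisons, and are given side by side only.

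Has1 was set beside the other hyaluronan synthases, Has2 and Has3, per kilobase of exon. These 2 were chosen as its relatives, outside the rule for named genes. In Des+/+ non-swim libraries Has3 was the main synthase transcript, with 1.94, 2.36 and 2.50 CPM per kb, against 0.445, 0.193 and 0.213 for Has2 and 0.104, 0.103 and 0.180 for Has1. Has1 thus held 3.89% to 6.21% of the summed level of the 3 genes there, and 17.4% to 20.6% in Des+/+ swim libraries. These shares rest on few reads, 4 to 9 of Has1 without swimming and 5 to 22 after it. Has2 had only 3 reads, the floor, in Des+/+ swim replicate 3. In Des-/- non-swim libraries the share of Has1 was 21.6%, 19.4% and 88.8%, and in Des-/- swim libraries 12.7%, 20.4% and 66.5%. In both Des-/- replicates 3, Has1 was the leading synthase transcript and Has3 was the lowest of its group, at 1.41 and 0.699 CPM per kb.

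Has2 averaged 1.201 CPM in Des+/+ and 8.31 CPM in Des-/- non-swim libraries, which did not overlap, and it rose with an edgeR adjusted p of 0.00799 (log2 change 2.79, SE 0.64). Its Des-/- non-swim libraries held 4.89, 3.62 and 16.4 CPM, and without replicate 3 the log2 change of Has2 was 1.88 (edgeR adjusted p 0.0307). After swimming its log2 change was 1.199 (SE 0.67, edgeR adjusted p 0.249). Has3 had log2 changes of 0.30 (SE 0.53, edgeR adjusted p 0.701) and 0.68 (SE 0.55, adjusted p 0.427), with overlapping libraries in both. Without Des-/- non-swim replicate 3 the former was 0.69 (edgeR adjusted p 0.364). Without Des-/- swim replicate 3 the latter was 1.09 (edgeR adjusted p 0.192).

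**Figure D5:**
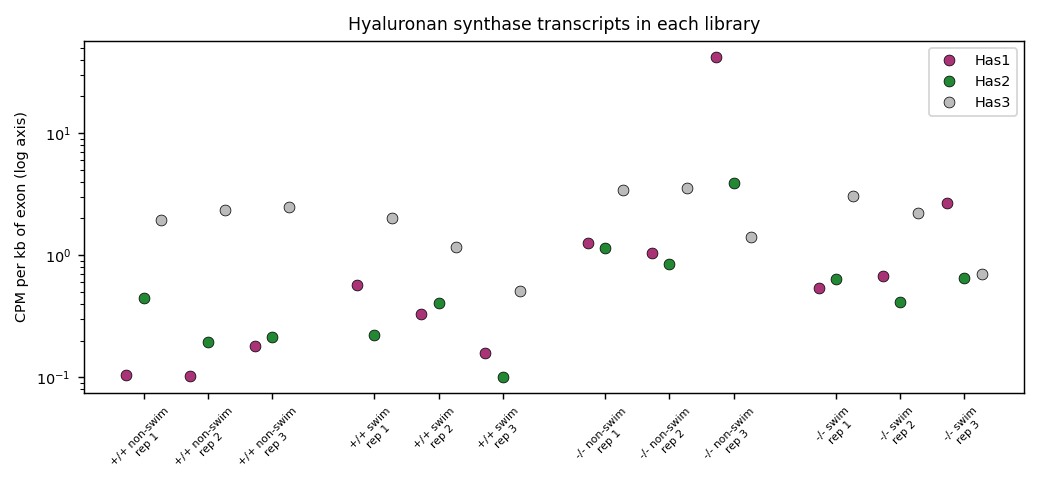
Level of Has1, Has2 and Has3 in each library, in CPM per kb of exon on a log axis. Has3 is highest in all Des+/+ libraries, and Has1 exceeds it in replicate 3 of both Des-/- groups, at 42.1 and 2.69 CPM per kb.

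Other genes around hyaluronan numbered 32 names, with 31 in the tables and 22 tested, Has2 and Has3 included. They comprise the enzyme of precursor supply, hyaluronidases, receptors and the proteins that bind and link the polymer. Without swimming 11 of the 22 were called higher in Des-/- and 0 lower, with a median log2 change of 1.25. Of all tested genes, 14.0% were called higher and 18.0% lower, 32.0% in either direction. The smallest p-values were those of Itih2, at a log2 of 2.59 (SE 0.34, edgeR adjusted p 8.52e-04), and Itih5, at 1.24 (SE 0.22, adjusted p 0.00199), heavy chains of the inter-alpha-trypsin inhibitors, which are bound to hyaluronan covalently. The count was 7 without Des+/+ non-swim replicate 2 or without Des+/+ non-swim replicate 3. After swimming the list had a median log2 change of 0.47 and 4.55% of its tested genes called. Of all tested genes, 5.01% were called higher and 10.6% in either direction. The 1 of the 22 called was Itih2, higher in Des-/- at 1.65 (SE 0.35, edgeR adjusted p 0.0183). That call was lost without any of 4 libraries, Des+/+ swim replicates 1, 2 and 3 and Des-/- swim replicate 1, each of which left 0 genes called, whereas 4 were called without Des-/- non-swim replicate 3.

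Of 24 further genes of epicardium and mesothelium, 23 had a row and 18 were tested. Without swimming 5 of the 18 were called, all higher in Des-/-, with a list median of 1.46. DESeq2 called 9, against 36.4% of all genes called in either direction. By the smallest p-values these were led by Tcf21, a transcription factor of epicardial derivatives and fibroblasts that also stood in the fibroblast list, at a log2 of 1.27 (SE 0.23, edgeR adjusted p 0.00216), and Prg4, the lubricating proteoglycan lubricin, at 1.51 (SE 0.36, adjusted p 0.00887). After swimming 3 of the 18 were called, again all higher in Des-/-, with a list median of 1.31. These were Anxa8, a calcium-dependent phospholipid-binding protein, at 3.04 (SE 0.62, edgeR adjusted p 0.0173), Prg4 at 1.60 (SE 0.36, adjusted p 0.0220) and Rspo1, a secreted Wnt agonist named outside the rule, at 2.59 (SE 0.75, adjusted p 0.0489). Without Des-/- swim replicate 3 the log2 change of Rspo1 was 1.67 (edgeR adjusted p 0.168). Over 12 fits that each left out 1 library, the call after swimming was lost in 9 for Rspo1, 4 for Prg4 and 1 for Anxa8. The shares called, all higher in Des-/-, were 27.8% without and 16.7% after swimming. Of all tested genes, 14.0% and 5.01% were called higher, and 32.0% and 10.6% were called in either direction. Leaving out Des+/+ swim replicate 3 left 0 of the 3 calls after swimming, and leaving out replicate 2 of that group or Des-/- swim replicate 1 or 2 left 1. Without swimming the count was 3 without Des+/+ non-swim replicate 3, 10 without Des-/- non-swim replicate 1 and 11 without Des-/- swim replicate 3.

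The retinoic acid genes, around the enzyme Aldh1a2, numbered 21, of which 17 were tested. Without swimming 8 were called, 5 higher and 3 lower in Des-/-, with a median log2 change of 0.40, against 14.0% of all genes called higher and 18.0% called lower. The higher ones were led by Aldh1a1, another retinaldehyde dehydrogenase, at 1.14 (SE 0.16, edgeR adjusted p 9.69e-04). The lower ones were led by the nuclear receptors Rxrg, at -2.69 (SE 0.41, edgeR adjusted p 0.00120), and Rarb, at -1.62 (SE 0.28, adjusted p 0.00200). After swimming 3 of the 17 were called, all higher, against 10.6% of all tested genes called and 5.01% called higher, among them Aldh1a1 at 0.78 (SE 0.16, edgeR adjusted p 0.0174). Another, named outside the rule, was Lrat, the enzyme that stores retinol as its ester. Lrat held 1, 1 and 0 reads in the Des+/+ swim libraries, all under the floor, and 11, 6 and 4 in the Des-/- swim libraries, so its fold change is not given, and its call was lost without any 1 of 5 of these 6 libraries. The count without swimming was 4 without Des+/+ non-swim replicate 1 or 2 or Des-/- non-swim replicate 3. After swimming it was 0 without Des+/+ swim replicate 1 or 3, 1 without replicate 2 of that group or Des-/- swim replicate 1, and 5 without Des-/- non-swim replicate 3.

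Markers of other cells moved beside these lists. Without swimming all 10 fibroblast markers, 8 of 10 macrophage markers and 10 of 12 isolation response genes were called higher in Des-/-, and all 12 cardiomyocyte markers were called lower. After swimming 3 fibroblast markers, 0 macrophage markers and 7 isolation response genes were called higher, and 1 cardiomyocyte marker was called lower. Of all tested genes, 14.0% were called higher and 18.0% lower without swimming. After it, 5.01% were called higher and 733 of 13158 lower. Without swimming 1 of 7 mural and 1 of 4 atrial markers were also called lower. After swimming 1 of 9 endothelial and 1 of 4 atrial markers were called higher. Their part in the higher and lower calls of the 3 lists was not tested.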

How the data were processed

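Poly-A RNA of cardiomyocytes was sequenced in 12 libraries, 3 in each of 4 groups taken from the labels. The deposited values were raw, unnormalised counts per gene: the authors aligned the reads (single-end) to GRCm38 with HISAT2 (2.2.1) and counted them with HTSeq on the reverse strand. An Illumina TruSeq kit is named in the labels, a directional NEBNext kit in the study's methods. Positions and exon lengths were taken from GENCODE M21 and promoters from RefSeq.

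Genes were kept with filterByExpr (13158 of 21493), scaled by TMM and fitted in edgeR 4.0.16 (R 4.3.3, limma 3.58.1) as 4 group means over all 12 libraries, with 8 residual degrees of freedom and a common biological coefficient of variation of 0.271. P-values of quasi-likelihood tests were adjusted by Benjamini and Hochberg over all tested genes, and genes under 0.05 were called. CPM refers to scaled totals of assigned reads, 4320819 to 12072443 per library, and reads outside genes (52.4% to 78.8% of all) were left out. The floor of 3 counts covers counting error only. SEs are on the log2 scale.

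The 9 genes and all lists were chosen with earlier results of these data known. Named were, besides the 9, the 5 genes most like Has1 and like Upk3b, and up to 2 called genes per direction with the smallest p in each list and genotype comparison; others are marked as outside this rule. A gene of the retinoic acid list that met the rule is not reported here by name. Alternatives were DESeq2 1.42.0, other scalings, no filter, fits of the compared groups alone, the replicate number as a block, and omission of single libraries. The fitting code was run on simulated counts with the same dispersion for every gene, which is no check for genes as variable as these. Samples with the same replicate number did not deviate together in the genotype comparisons (correlations of -0.15 to 0.13) but did between the Des-/- groups (0.32 to 0.60).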

Additional observations from a re-analysis of the deposited data

How the results depend on the processing

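The number of the 8 genes called after swimming was 0 under all alternatives except DESeq2, which called 1, and stayed 0 when any library was left out. DESeq2 also called 9 rather than 5 further epicardial genes without swimming and 2 rather than 1 hyaluronan genes after it. With a replicate block 2 hyaluronan genes were called after swimming, as in a fit of only the 6 libraries compared, and the block changed no other count by over 1.5 times. Same-numbered libraries did not deviate together in the genotype comparisons but did between the Des-/- groups (correlations of 0.32 to 0.60). Whether the number stands for anything shared was not tested. In the fit of 6 libraries 5 retinoic acid genes were called without swimming. With both Des-/- libraries numbered 3 left out, 5 retinoic acid genes were called without swimming and 3 hyaluronan genes after it. Leaving out each library in turn gave 3 to 11 epicardial genes without and 0 to 3 after swimming, 7 to 12 and 0 to 4 hyaluronan genes, and 4 to 9 and 0 to 5 retinoic acid genes. The cause of these differences was not tested. Aldh1a2 changed direction after swimming, to a log2 of -0.077 without Des-/- swim replicate 3 (range -0.077 to 1.38 over single libraries left out) and -0.078 without both Des-/- libraries numbered 3. The other 7 genes kept a positive change after swimming in 19 alternatives each, as did all 8 without swimming. Of 133 alternative counts of called genes, 103 stayed within 1.5 times the main count.

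Upper-quartile scaling moved the split of all genes called after swimming from 659 higher and 733 lower to 948 and 456, and without swimming from 1840 and 2370 to 2492 and 2034. After swimming 1392 genes were called in all, and 74 without Des+/+ swim replicate 3. With 3 libraries a group, and 2 reads in the lowest libraries of Lrrn4 and Upk1b, the log2 changes of Upk3b, Msln, Lrrn4, Upk1b and Krt19 carried SEs of 0.80 to 1.18 after swimming, against 0.21 for Tbx18.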
